A study of Mus musculus with 199 samples.

Results

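T cells sorted from the liver and from the blood of the same untreated DEN ALIOS mice were compared in 6 liver and 7 blood libraries, 13 of the 199 libraries of the series. Libraries were taken by title, as T cells of DEN ALIOS mice with no drug named, and paired by the animal code in the library name. DEN ALIOS is a mouse model of liver cancer on steatohepatitis, made with the liver carcinogen diethylnitrosamine (DEN) and a fatty, sugared diet (ALIOS). All mice were wild-type C57BL/6 males of an in-house colony, and their ages are not given in the sources used here. Liver replicates 1, 2, 3, 4, 5 and 6 shared an animal with blood replicates 1, 2, 4, 5, 6 and 7, in that order. Blood replicate 3 had no liver partner and was described but not tested. Liver replicate 3 and blood replicates 3 and 4 carry the label Vehicle, with no agent named. Cells were sorted for surface CD3, a gate that also takes gamma delta and natural killer T cells. The titles call the source liver, whereas the protocol in the labels speaks of tumours, and liver is used here as in the titles. Differences were set beside those of 8 liver and 8 blood T cell libraries of mice labelled PBS, with no DEN ALIOS in the title, and of 5 liver and 5 blood libraries of DEN ALIOS mice given an antibody to the checkpoint receptor PD-1 (aPD1).

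Naive T cells travel between blood and lymphoid organs, guided by homing receptors such as CCR7, and leave tissues through the sphingosine phosphate receptor S1PR1. T cells that settle in a tissue lose this programme and take up adhesion and retention molecules. In the liver CXCR6, the receptor of CXCL16, is a known marker of such cells. T cells that meet antigen over a long time take up inhibitory receptors such as PD-1 and LAG-3 and the transcription factor TOX, a state called exhaustion.

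Gene counts per library ranged from 5107727 to 9360666 in liver (median 7459757) and from 4522064 to 10579882 in blood (median 6456551). Levels are given in CPM, the gene's count relative to the library total after TMM scaling. They are not set against each other between genes, because they are not per gene length. Every library held the T cell gene *Cd3e*, which encodes a chain of the T cell receptor complex. Liver libraries also held transcripts of other cells, unevenly. The 18 hepatocyte genes summed to 15.9 to 995 CPM in liver against 0.291 to 6.77 CPM in blood, and the 14 Kupffer cell and macrophage genes to 27.1 to 491 CPM against 4.30 to 13.8 CPM. The sums of liver replicates 1, 2 and 6 exceeded 100 CPM of the macrophage list, while liver replicates 3, 4 and 5 held 27.1 to 35.7 CPM. Of the defining genes, *Marco* of macrophages had no count in 3 of 6 liver libraries and *Lrat* of stellate cells none in 5. Blood libraries held platelet genes (6.68 to 97.3 CPM over 10 genes, against 2.71 to 18.2 CPM in liver). The erythroid list overlapped, at 17.7 to 6007 CPM in liver and 52.1 to 5923 CPM in blood. Counts of the main gene groups are also given from the 3 animals of liver replicates 3, 4 and 5 alone, a choice made after seeing the data. This choice does not remove transcripts of other cells. In these animals 6 of 6 tested macrophage genes and 7 of 9 dendritic cell genes were still higher in liver (edgeR adjusted p under 0.05). Their median log2 fold changes were 7.29 and 2.32. Of all 11941 genes in that fit, 2365 were higher and 2233 lower in liver. In bulk RNA, more cells of a type and more RNA per cell cannot be told apart.

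**Figure D1:**
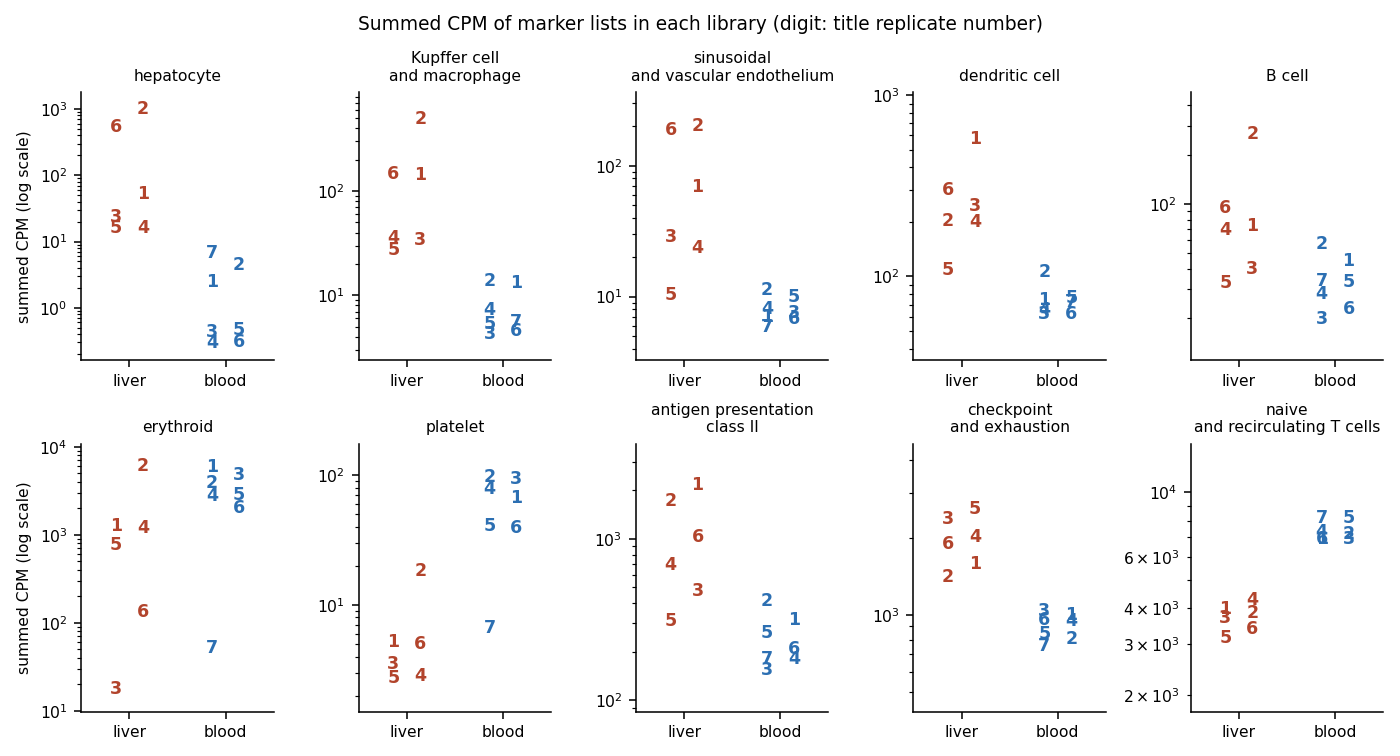
Summed CPM (log scale) of 10 gene lists in each library, liver left and blood right in each panel, each digit being the replicate number in the title. Liver replicates 1, 2 and 6 stand above the other liver libraries for hepatocyte, macrophage and endothelial genes, blood lies above liver for most platelet sums, and the checkpoint and naive lists do not overlap between the sites.

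The difference between the sites was broad. Among 11732 genes tested with the animal as a block (edgeR's quasi-likelihood test, Benjamini-Hochberg adjusted p under 0.05), 4760 were called, which is 40.6%. Of these, 2487 (21.2% of the tested genes) were higher and 2273 (19.4%) lower in liver. The median log2 fold change over all tested genes was −0.000573. A change of at least 2-fold was found in 874 called genes that were higher and 345 that were lower in liver. Of the called genes, 3830 moved the same way in all 6 animals. All 6 liver libraries lay above all 7 blood libraries for 8.78% of the tested genes and below them for 8.45%. The library names begin with 2 prefixes, called run 1 and run 2 here, which each held 3 of the paired animals. The labels used here do not say what the prefix stands for. Within them, 1790 genes were called in run 1 and 3469 in run 2. Below, fold changes are log2 values of liver over blood ± standard error, and levels are lowest, median and highest CPM.

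The genes of the receptor complex showed small differences. *Cd3e* (GRCm38 chr9:44998740-45009627) had 387, 549 and 676 CPM in liver against 377, 418 and 450 CPM in blood, a log2 fold change of 0.41 ± 0.08 (edgeR adjusted p = 0.00114). It was higher in liver in 6 of 6 animals, although the ranges of the sites overlapped. *Trac*, the constant gene of the receptor's alpha chain, had 259, 339 and 384 CPM in liver and 210, 223 and 258 CPM in blood, with no overlap (0.51 ± 0.07). Of the 19 genes of the list, 5 were higher in liver (*Cd3e*, *Cd3g*, *Trac*, *Trbc2* and the kinase gene *Zap70*), 2 were lower, among them *Cd247*, and the median log2 fold change was 0.04. These counts are 26.3% and 10.5%, against 21.2% and 19.4% of all genes. *Cd4* of helper T cells had 188, 269 and 407 CPM in liver against 185, 222 and 279 CPM in blood (0.24 ± 0.12, not called, though it passed at 0.34 without liver replicate 5). The cytotoxic lineage gene *Cd8a* had 399, 576 and 823 CPM in liver against 429, 462 and 509 CPM in blood (0.34 ± 0.14, adjusted p = 0.0753). Liver replicate 2, the library with most macrophage and hepatocyte transcripts, was the lowest for *Cd8a*. Without that animal *Cd8a* passed the test (0.46, adjusted p = 0.00617), and in the 3 animals of liver replicates 3, 4 and 5 it did too (0.62, adjusted p = 6.52e-05). Over all alternatives its adjusted p ran from 6.52e-05 to 0.885. *Cd8b1*, which encodes its partner chain, had 293, 440 and 599 CPM in liver against 375, 428 and 493 CPM in blood and was not called (−0.01 ± 0.12). The log2 ratio of *Cd4* to *Cd8a* counts differed by −0.0939 on average (SD 0.738, lower in 4 of 6 animals, exact sign-flip p = 0.6875, two-sided).

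The shares of the 22 beta chain variable segments were less even in liver than in blood of the same animal in 6 of 6 mice. This difference missed the threshold after adjustment (exact sign-flip p = 0.0521). In each liver library 1 segment led, with 20.8% to 34.0% of the counts over all *Trbv* segments, against 12.6% to 16.9% for the leading segment of each paired blood library. The leading segment was not the same in every mouse. *Trbv3* held 28.8% of 1564 counts in liver replicate 1 (95% exact binomial interval 26.6% to 31.2%) and 10.3% of 787 counts in its blood partner. *Trbv15* held 34.0% of 3052 counts in liver replicate 4 and 8.09% of 1458 counts in the blood of that mouse, and it also led in liver replicate 5, with 24.4% against 12.6%. *Trbv13-1*, *Trbv29* and *Trbv26* led in liver replicates 2, 3 and 6 with 24.8%, 26.8% and 20.8%, against 6.12%, 8.16% and 2.46% in blood. Each of the 6 leading segments thus had a larger share in liver than in the blood of the same mouse, which is how the segment was picked. The inverse Simpson number, the number of evenly used segments that would give the same concentration, had 6.66, 8.10 and 10.4 as lowest, median and highest in liver against 12.2, 13.5 and 15.1 in all 7 blood libraries. Every liver library lay below every blood library. The mean difference was −5.25 (SD 1.64), lower in 6 of 6 animals. Its exact sign-flip p was 0.03125, the smallest that 6 pairs can give, or 0.0521 adjusted over 5 measures of the libraries. Another of these measures, the mitochondrial share of the gene counts, was 12.5%, 17.0% and 27.9% in liver against 10.8% to 16.8% in paired blood (exact sign-flip p = 0.34375). It was highest in liver replicates 2 (27.9%) and 1 (20.6%), the libraries lowest for *Pdcd1*, *Lag3* and the heat shock list, and its part in those results was not tested. Within run 1 the mean difference of the inverse Simpson number was −4.44 and within run 2 −6.06. Unique alignment can lose counts of near-identical segments such as those of the *Trbv13* family, and the intervals cover counting error only.

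**Figure D2:**
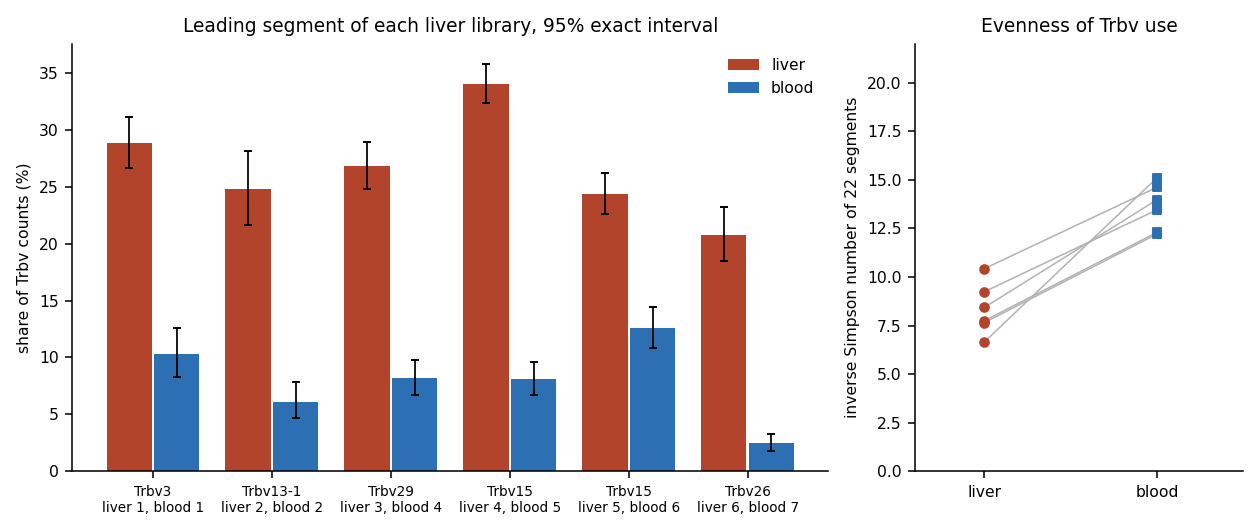
Left, share of all *Trbv* counts (%) held by the leading segment of each liver library in that library and in the blood of the same mouse, with 95% exact binomial intervals. Right, inverse Simpson number of 22 segments per library, with libraries of 1 animal joined. All 6 liver libraries lie below the paired blood libraries, by 5.25 on average.

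Genes of naive and recirculating T cells were lower in liver almost throughout. Of 20 list members 18 fell, against 19.4% of all genes tested, and the list's median log2 fold change was −1.35. All liver libraries lay below all blood libraries for 17 members, against 8.45% of all genes. *Ccr7*, the lymph node homing receptor, had 31.4, 48.7 and 63.2 CPM in liver and 168, 201 and 265 CPM in blood. It fell by 2.13 ± 0.13 on the log2 scale (edgeR adjusted p = 4.16e-06). The exit receptor gene *S1pr1* had 122, 145 and 199 CPM in liver and 295, 326 and 423 CPM in blood, and *Klf2*, the transcription factor that maintains it, had 130, 161 and 213 CPM against 293, 329 and 427 CPM. These genes fell by 1.22 and 1.11. *Tcf7* and *Lef1*, transcription factors of naive and memory T cells, fell by 1.34 and 1.63, *Il7r*, the receptor of the survival cytokine IL-7, by 1.33, and the chromatin organiser *Satb1* by 1.68. The 2 members that did not pass were *Ccr9*, the receptor of the gut chemokine CCL25 (18.4, 41.7 and 88.7 CPM in liver against 21.4, 26.6 and 44.2 CPM in blood), and *Itga4*, an integrin of activated cells (0.20 ± 0.08, not called, though it passed at 0.28 without liver replicate 1). In the animals of liver replicates 3, 4 and 5 alone, 17 members fell and *Itga4* rose, with a median of −1.45.

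Genes of tissue residency rose in 15 of 19 cases, against 21.2% of all genes, and the other 4 were not called. The median log2 fold change was 1.37, and 12 members lay above blood in all liver libraries, against 8.78% of all genes. *Cxcr6* had 118, 186 and 254 CPM in liver against 60.6, 76.9 and 86.6 CPM in blood (1.37 ± 0.13, edgeR adjusted p = 5.87e-05). *Rgs1*, which damps signals of chemokine receptors, had 301, 500 and 789 CPM in liver against 24.9, 42.8 and 90.2 CPM in blood (3.54 ± 0.35). Its relative *Rgs16* rose by 4.80 ± 0.29. Both were higher in every liver library than in any blood library. *Itga1*, an integrin that binds collagen, rose by 1.08, the chemokine gene *Xcl1* by 2.22 and *Bhlhe40*, a transcription factor of resident and cytokine-producing T cells, by 2.60. The classical residency marker *Cd69*, which antagonises S1PR1 at the cell surface, did not differ detectably, with 73.6, 115 and 152 CPM in liver against 91.2, 114 and 148 CPM in blood (−0.08 ± 0.13, adjusted p = 0.665). *Itgae*, the integrin that binds E-cadherin, had 21.2, 40.8 and 51.4 CPM in liver and 43.6, 49.2 and 57 CPM in blood (−0.39 ± 0.17, not called). *Zfp683*, which encodes the residency factor Hobit, and the phosphatase gene *Inpp4b* were not called either. Without liver replicate 1 *Itgae* passed as lower (−0.50), and without liver replicate 5 *Zfp683* passed as higher (0.83). The 3 animals of liver replicates 3, 4 and 5 again gave 15 members that rose.

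**Figure D3:**
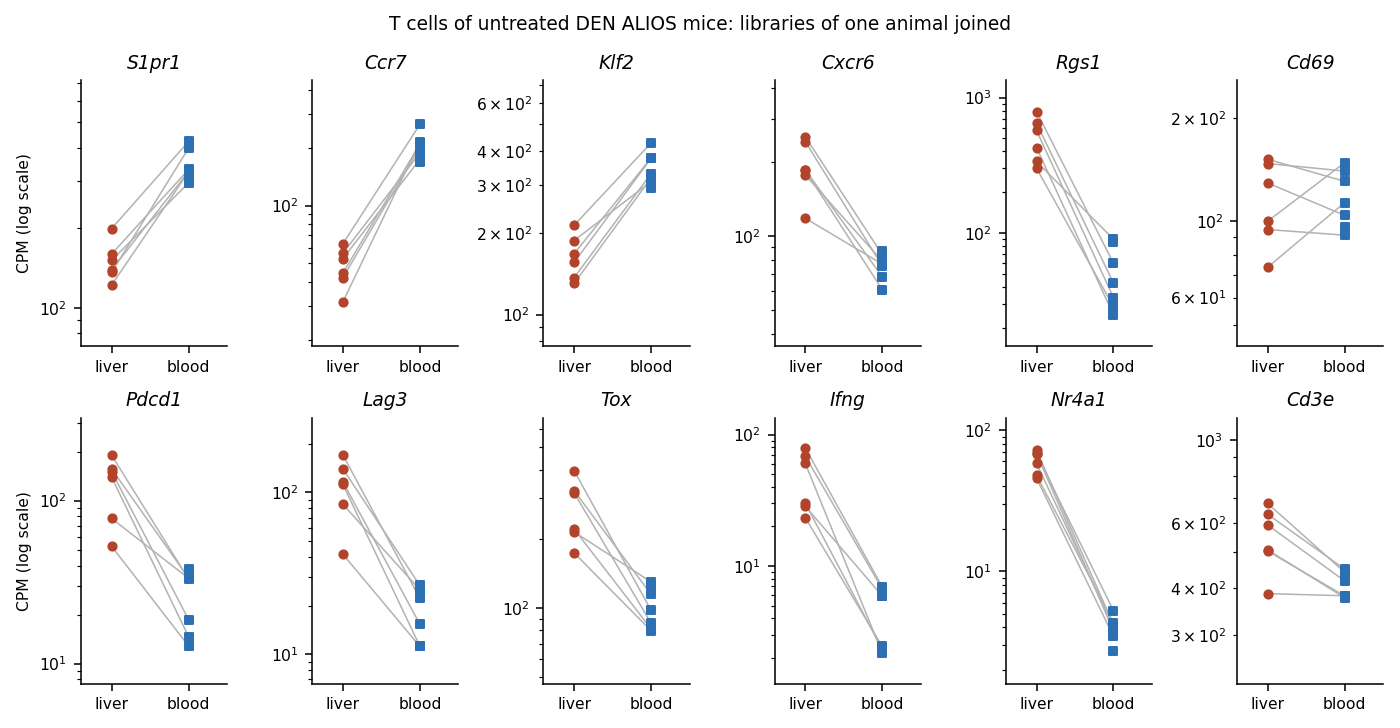
CPM (log scale) of 12 genes in each liver library (circles, left) and each blood library (squares, right), with lines joining libraries of 1 animal. The blood square without a line is replicate 3. *S1pr1*, *Ccr7* and *Klf2* lie lower in all liver libraries, *Cd69* overlaps between the sites, and 7 of the other genes lie wholly above blood while *Cd3e* overlaps.

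Inhibitory receptors and genes of exhaustion rose together in liver. Of 20 list members 17 rose and 2 fell, against 21.2% and 19.4% of all genes. The median log2 fold change was 1.79. In every liver library 15 members lay above blood, against 8.78% of all genes. *Pdcd1*, the gene of PD-1 (chr1:94038305-94052553), had 52.4, 145 and 190 CPM in liver against 12.8, 33 and 38.2 CPM in blood (2.42 ± 0.28, edgeR adjusted p = 0.000838). *Lag3*, whose product binds MHC class II, had 41.5, 114 and 170 CPM in liver against 11.2, 22.2 and 26.6 CPM in blood (2.59 ± 0.22). For both genes liver replicates 1 and 2 were the lowest liver libraries and liver replicate 5 the highest. *Havcr2*, the gene of TIM-3, rose by 2.61 ± 0.37, *Tigit* by 2.44 ± 0.23, *Ctla4* by 2.13 ± 0.20 and *Entpd1*, which encodes the ectonucleotidase CD39, by 1.67 ± 0.18. *Tox* had 174, 269 and 397 CPM in liver and 79.8, 97.8 and 130 CPM in blood, a rise of 1.46 ± 0.17. Not all inhibitory receptors followed. *Vsir*, the gene of VISTA, had 162, 173 and 175 CPM in liver against 206, 219 and 248 CPM in blood, and fell by 0.40 ± 0.06. *Btla*, an inhibitory receptor of resting lymphocytes, fell by 0.54 ± 0.14 (adjusted p = 0.0144, or 0.0526 without liver replicate 6, with 3.11e-06 to 0.366 over all alternatives), and *Cd96* was not called (−0.07 ± 0.08). In the 3 animals of liver replicates 3, 4 and 5 the counts were again 17 and 2, with a median of 1.82.

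Cytotoxic genes rose in 12 of 19 tested cases and fell in 1, against 21.2% and 19.4% of all genes, with a median of 0.72. *Gzmk*, a granzyme of memory-like CD8 T cells, had 81.8, 101 and 201 CPM in liver against 22.1, 53.8 and 73 CPM in blood (1.60 ± 0.22, edgeR adjusted p = 0.00138). Every liver library exceeded every blood library. *Gzma* was also without overlap, at 174, 245 and 317 CPM in liver and 49.4, 101 and 168 CPM in blood (1.57 ± 0.39, adjusted p = 0.0255). Its call was lost without liver replicate 2, 3 or 4, at adjusted p between 0.0636 and 0.0701. *Gzmb*, the main granzyme of killer cells, had 133, 275 and 722 CPM in liver against 35.8, 110 and 291 CPM in blood and did not pass (1.60 ± 0.58, adjusted p = 0.0797). It was lower in liver in the animal of replicate 1 (133 against 291 CPM) and higher in the other 5. Without that animal it passed (2.06, adjusted p = 0.00034, with 3.95e-09 to 0.579 over all alternatives). The pore-forming protein gene *Prf1* rose by 0.72 and the death ligand gene *Fasl* by 1.09, while *Cx3cr1*, the fractalkine receptor of circulating effector cells, was not called (0.19 ± 0.25). *S1pr5*, an exit receptor of effector and natural killer cells, was the member that fell, with 3.06, 3.92 and 8.23 CPM in liver against 8.28, 12.4 and 15.9 CPM in blood.

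Most of the cytokine genes that could be tested rose in liver. Of the 22 list members 13 passed the low-count filter. Among these, 10 rose and 2 (*Ltb* and *Il16*) fell, against 21.2% and 19.4% of all genes. The summed level of the list overlapped between the sites, at 539 to 643 CPM in liver and 519 to 647 CPM in blood. *Ifng*, the gene of interferon gamma, had 23.3, 45.1 and 79 CPM in liver against 2.17, 5.88 and 6.93 CPM in blood (3.50 ± 0.24, edgeR adjusted p = 1.25e-05). *Il10*, an anti-inflammatory cytokine, had 7.57, 12.5 and 21 CPM in liver, while blood held between 0 and 0.574 CPM. *Il21*, a cytokine of helper cells, rose by 3.74 ± 0.37 and *Tnf* by 1.40 ± 0.25. Liver levels lay above all blood levels for each of these 4 genes. Among 17 chemokine and chemokine receptor genes 12 rose (70.6%) and 2 (*S1pr4* and *Gpr183*) fell (11.8%), against the same shares of all genes. *Ccl3*, an inflammatory chemokine, had 70.9, 129 and 227 CPM in liver against 2.94, 7.08 and 11 CPM in blood (4.49 ± 0.25), and its neighbour *Ccl4* rose by 4.24 ± 0.20. *Ccr8*, a receptor of tissue regulatory T cells, had 2.67, 7.34 and 10.8 CPM in liver and at most 0.873 CPM in blood. The receptors *Cxcr3* and *Cxcr4* rose by 0.54 and 0.38.

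Regulatory and unconventional T cell genes gave a mixed picture. In the list of regulatory T cells and TNF receptors 12 of 19 members rose and 3 (*Gpr83*, *Tnfrsf25* and *Cd27*) fell. Of all genes 21.2% rose and 19.4% fell. *Foxp3*, the defining factor of regulatory T cells, had 29.4, 40.6 and 63.1 CPM in liver against 13.2, 24.3 and 33.9 CPM in blood (0.82 ± 0.30, edgeR adjusted p = 0.0717). It was higher in 5 of 6 animals and passed without liver replicate 1 (0.59, adjusted p = 0.0471) or 5 (1.00, adjusted p = 0.0481), with 0.00287 to 0.253 over all alternatives. *Il2ra*, the IL-2 receptor chain, rose by 0.65 ± 0.16, though in the animals of liver replicates 3, 4 and 5 it was 0.28 and not called (adjusted p = 0.0988, with 0.00447 to 0.0988 over all alternatives). *Tnfrsf9*, the gene of the costimulator 4-1BB, had 32.3, 64.5 and 72.1 CPM in liver against 3.47, 7.94 and 10.3 CPM in blood (3.15 ± 0.32), without overlap. Of the IL-17 and gamma delta list 5 of 14 rose (*Rora*, *Maf*, *Batf* and the gamma chain constant genes *Tcrg-C2* and *Tcrg-C4*). That is 35.7%, against 21.2% of all genes. *Tcrg-C4* had 13.4, 26.9 and 83.1 CPM in liver and 5.53, 8.55 and 16.6 CPM in blood (1.79 ± 0.23), highest in liver replicate 4. In the animals of liver replicates 3, 4 and 5 alone 5 members of this list rose and 5 fell. Of 19 receptors of NKT and NK cells 7 rose (36.8%, against 21.2% of all genes). They include the adaptors *Tyrobp* (8.83 to 42.3 CPM in liver, 1.86 to 7.33 CPM in blood) and *Fcer1g* (4.00 to 36.4 CPM in liver, 0.98 to 8.55 CPM in blood), which myeloid cells also express, and the part of such cells was not tested. In this list neither *Klrb1c*, the gene of NK1.1 (−0.46 ± 0.32), nor *Zbtb16*, the factor of innate-like T cells (0.81 ± 0.41), was called. In the animals of liver replicates 3, 4 and 5 *Klrb1c* passed as lower (−1.19, adjusted p = 0.00179, with 0.00179 to 0.685 over all alternatives).

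Immediate early genes, which a cell switches on within minutes of receptor signals or stress, were mostly higher in liver. Of 24 tested members 20 rose and 1 (*Myc*) fell, against 21.2% and 19.4% of all genes. The median log2 fold change was 1.64. *Nr4a1*, an orphan nuclear receptor induced by T cell receptor signals, had 45.6, 62.8 and 72 CPM in liver against 2.73, 4.07 and 5.25 CPM in blood (3.85 ± 0.11, edgeR adjusted p = 1.46e-09). Its relatives *Nr4a2* and *Nr4a3* rose by 4.67 ± 0.22 and 2.92 ± 0.13, and all 3 lay wholly above blood. *Nr4a1* is also counted in the residency list, and *Nr4a2* and *Nr4a3* in the checkpoint list. *Dusp1*, a phosphatase that shuts off MAP kinases, had 49.5, 140 and 193 CPM in liver and 6.31, 7.53 and 11 CPM in blood (3.83 ± 0.31). *Fos*, a subunit of the factor AP-1, had 6.56, 43.3 and 76.1 CPM in liver and 1.88, 3.25 and 7.75 CPM in blood (3.33 ± 0.39). The overlap came from liver replicate 1, whose *Fos* level was under that of 1 blood library. *Egr2* had 8.74 to 15.9 CPM in liver and at most 1.43 CPM in blood, and *Tnfaip3*, which restrains NF-kappaB signalling, had 138, 424 and 653 CPM in liver against 85.3, 91.8 and 127 CPM in blood (1.77 ± 0.24). Any difference in how cells were prepared from liver and from blood cannot be told apart from the site. The same holds for the heat shock genes below.

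Heat shock genes rose in 11 of 14 tested cases, against 21.2% of all genes. The other 3 (*Dnajb4*, *Bag3* and *Hsf1*) were not called. The inducible chaperone genes *Hspa1a* and *Hspa1b* moved most within the list. *Hspa1b* had 28.7, 139 and 250 CPM in liver against 0.204, 0.93 and 6.4 CPM in blood (6.36 ± 0.60, edgeR adjusted p = 0.000633). *Hspa1a* had 15.8, 70.2 and 146 CPM in liver and 0, 0.143 and 2.91 CPM in blood. *Hsp90aa1*, the inducible form of the chaperone HSP90, rose by 1.21 ± 0.15. Within the liver group, replicates 4 and 5 held the most and replicates 1 and 2 the least of both inducible genes. The copies are near-identical and reads were aligned uniquely, so their split is uncertain.

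The 250 bases upstream of the start sites of 4 of these genes are shown because the genes moved together and their promoters hold known types of element (RefSeq, GRCm38.p6, 5′ to 3′ on the gene's strand). Capitals mark 1 motif per promoter, searched on both strands and picked for the gene. TGCGTCA in *Nr4a1* and TGACGTCA in *Dusp1* are of the cyclic AMP response element type, and GAANNTTC is the core of a heat shock element.
Nr4a1 chr15:101266596-101266845, plus strand: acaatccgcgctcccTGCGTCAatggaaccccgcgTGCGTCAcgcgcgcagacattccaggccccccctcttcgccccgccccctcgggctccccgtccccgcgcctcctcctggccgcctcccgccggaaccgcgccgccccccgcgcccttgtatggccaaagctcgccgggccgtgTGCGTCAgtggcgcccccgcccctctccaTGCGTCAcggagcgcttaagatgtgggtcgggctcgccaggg
Dusp1 chr17:26508473-26508722, minus strand: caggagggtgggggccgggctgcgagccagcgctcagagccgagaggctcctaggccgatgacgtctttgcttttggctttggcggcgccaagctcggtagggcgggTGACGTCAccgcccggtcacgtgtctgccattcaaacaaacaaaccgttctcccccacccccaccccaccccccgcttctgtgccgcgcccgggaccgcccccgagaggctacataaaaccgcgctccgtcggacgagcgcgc
Hspa1a chr17:34972157-34972406, minus strand: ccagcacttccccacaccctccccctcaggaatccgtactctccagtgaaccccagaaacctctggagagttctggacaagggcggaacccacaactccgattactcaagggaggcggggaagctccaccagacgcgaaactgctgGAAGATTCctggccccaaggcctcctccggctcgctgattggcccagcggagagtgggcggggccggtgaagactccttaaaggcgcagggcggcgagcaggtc
Hspa1b chr17:34959239-34959488, minus strand: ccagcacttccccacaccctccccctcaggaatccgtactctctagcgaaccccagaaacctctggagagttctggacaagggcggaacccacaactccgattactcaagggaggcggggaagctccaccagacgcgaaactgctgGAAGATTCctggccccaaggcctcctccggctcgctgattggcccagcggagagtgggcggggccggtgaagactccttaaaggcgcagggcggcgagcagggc

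The *Nr4a1* stretch held TGCGTCA 4 times, and 1.75% of 32851 promoter stretches of that length held it at least once. A count of at least 4 was found in 1 stretch (0.00304%). TGACGTCA was in 1.55% of the stretches and GAANNTTC in 6.69%. The stretches of *Hspa1a* and *Hspa1b* were identical at 247 of 250 bases. A match describes letters and does not show that a factor binds there.

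Cell cycle genes were higher in liver in 29 of 30 cases, all but *Ube2c*, against 21.2% of all genes. Their median was 1.53. *Mki67*, which marks dividing cells, had 328, 483 and 744 CPM in liver against 82.7, 130 and 316 CPM in blood (1.84 ± 0.27, edgeR adjusted p = 0.00258), without overlap. The topoisomerase gene *Top2a* rose by 2.07 ± 0.29 and the mitotic checkpoint kinase gene *Bub1* by 2.51 ± 0.37. In the animals of liver replicates 3, 4 and 5 all 30 rose. Of 22 glycolysis and hypoxia genes 15 rose (68.2%) and 1 fell (4.55%), against 21.2% and 19.4% of all genes. *Hk2*, which encodes the inducible hexokinase, rose by 2.11 ± 0.20 and *Gapdh* by 1.33 ± 0.18. The member that fell was *Pdk1*, a kinase that inhibits pyruvate dehydrogenase, with 36.3, 57.6 and 71.9 CPM in liver against 137, 156 and 184 CPM in blood. Endoplasmic reticulum genes rose in 15 of 18 cases (83.3%, against 21.2% of all genes), among them the chaperone gene *Hspa5* (1.12 ± 0.07) and the secretory factor *Xbp1* (1.09 ± 0.13). Of 17 NF-kappaB genes 13 rose (76.5%, against 21.2% of all genes). Interferon-stimulated genes did not move as a group, with 6 of 23 higher (26.1%, near the 21.2% of all genes) and 2 lower (*Ifit2* and *Ifi206*). Their median was 0.11, although the antiviral gene *Mx1* rose by 0.96 ± 0.14. In the 3 animals of liver replicates 3, 4 and 5 the interferon counts were 3 and 4. Lipid handling genes gave 6 of 21 higher (28.6%, near the 21.2% of all genes) and 1 (*Acadm*) lower. The lipid droplet gene *Plin2* rose by 1.61 ± 0.27, and in those 3 animals 6 members of the list rose and 8 fell.

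**Figure D4:**
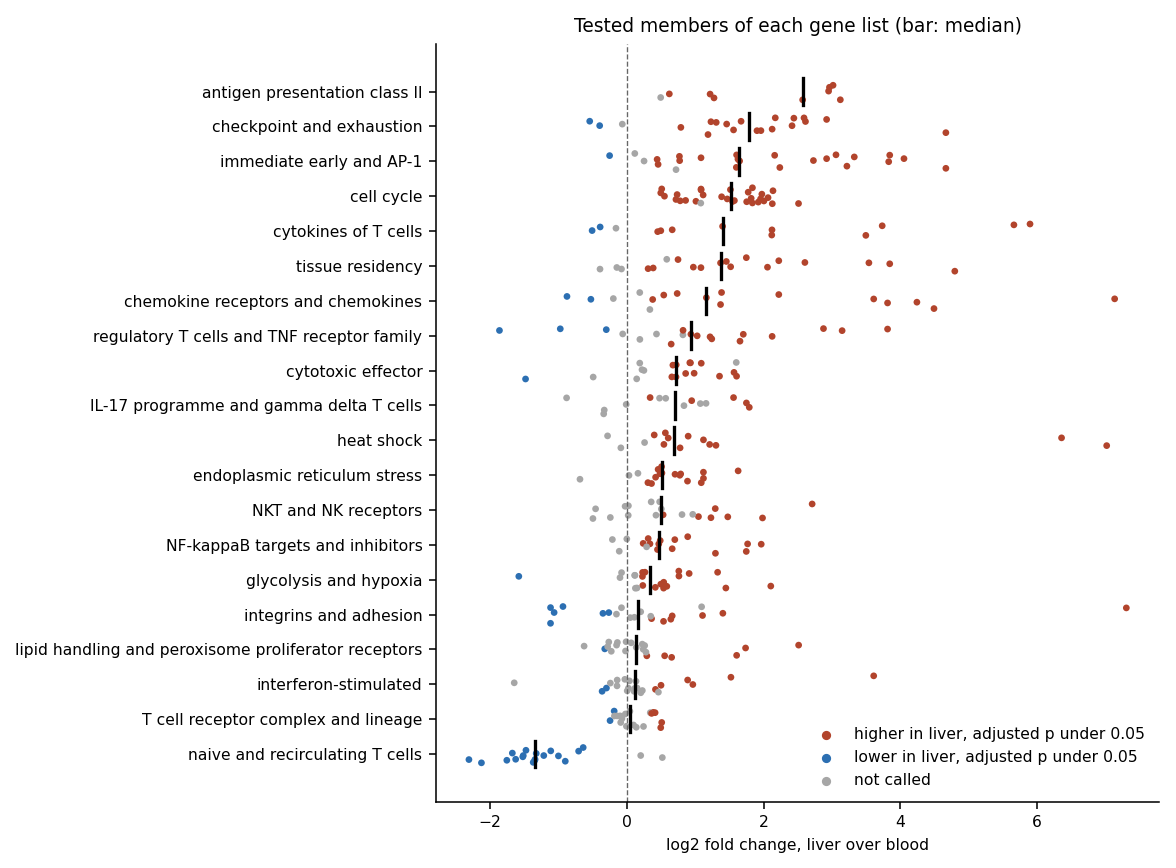
Log2 fold change of liver over blood for each tested member of 20 gene lists, red where higher, blue where lower and grey where not called, with the list median as a bar. The naive and recirculating list lies left of 0 with a median of −1.35, while the checkpoint, immediate early, cell cycle and residency lists lie right of it with medians from 1.37 to 1.79.

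MHC class II genes, which mouse T cells hardly transcribe, were mostly higher in liver. Of 9 tested members 8 rose, against 21.2% of all genes, with a median of 2.57. *H2-Ab1* had 31.7, 134 and 409 CPM in liver against 4.59, 8.14 and 48.2 CPM in blood (3.12 ± 0.36, edgeR adjusted p = 0.00127), and *Cd74*, the invariant chain, rose by 2.95 ± 0.38. Both were highest in liver replicates 1 and 2. The list summed to 2157, 1720, 475, 689, 311 and 1023 CPM in liver replicates 1 to 6 and to 153 to 414 CPM in blood. Dendritic cell genes summed to 577, 203, 243, 200, 108 and 300 CPM in the same order and to 62.1 to 106 CPM in blood, with 8 of 9 tested members higher. *Xcr1* of cross-presenting dendritic cells had 3.82, 8.02 and 22.9 CPM in liver and at most 1.88 CPM in blood. *Mpeg1*, a pore-forming protein of phagocytes, had 77.5, 230 and 577 CPM in liver against 11, 14.6 and 62.9 CPM in blood. In the animals of liver replicates 3, 4 and 5 alone 7 of the class II genes rose, with a median of 2.23. The part of other cells in the class II difference was not tested.

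The 12 largest rises over all genes included markers of hepatocytes, macrophages and endothelium. The rule took called genes of at least 10 CPM at the higher site that moved the same way in all 6 animals. *Alb*, the hepatocyte gene of albumin, had 7.17, 17.7 and 298 CPM in liver and at most 1.87 CPM in blood. The macrophage genes *Cd5l* and *C1qb* had 2.09 to 79.9 CPM and 2.24 to 53.2 CPM in liver, and at most 0.0891 and 0.204 CPM in blood. *Kdr*, the VEGF receptor of endothelium, had 1.88 to 29.3 CPM in liver and at most 0.873 CPM in blood, and *Vcam1*, an adhesion molecule of endothelium and macrophages, had 2.83 to 29.1 CPM in liver and at most 0.269 CPM in blood. All were called as higher, and all were highest in liver replicate 2 or 6. The rule also took *C1qc*, *Mrc1*, *Slc40a1*, *Hspa1a*, *Hspa1b* and *Il10*, and *Spp1*, which encodes osteopontin, with 8.51, 26.2 and 47.1 CPM in liver against 0.452, 1.07 and 1.46 CPM in blood (4.87 ± 0.20, edgeR adjusted p = 5.18e-08). A count of 0 allows up to 3 counts, or 0.284 to 0.663 CPM by library, so no fold is given for the macrophage and endothelial genes that were at 0 in blood libraries.

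Among the 12 largest falls were 2 platelet genes. *Tubb1* had 0, 0.26 and 2.43 CPM in liver against 0.891, 16.9 and 25.1 CPM in blood, and *Itga2b* fell by 2.69 ± 0.31. *Igfbp4*, a binding protein of insulin-like growth factors and a known naive T cell transcript, had 18, 37.9 and 102 CPM in liver and 159, 234 and 271 CPM in blood (−2.31 ± 0.42, edgeR adjusted p = 0.00826). It fell without overlap, though in the 3 animals of liver replicates 3, 4 and 5 it did not pass (−2.60, adjusted p = 0.0783). *Slc6a19*, a neutral amino acid transporter, and *St8sia6*, a sialyltransferase, fell by 2.55 ± 0.22 and 2.01 ± 0.26. *Ccr7*, *Sorcs2*, *Amigo2*, *Slc25a27*, *Rflnb*, *Tdrp* and *Cnga1* made up the rest. The integrin *Itgb3* and the adhesion molecule *Pecam1* each fell by 1.12, with platelet transcripts also lower in liver. The part of platelets in those 2 falls was not tested.

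The site difference was then set against that in PBS mice, by testing the difference of the 2 log2 fold changes (model minus PBS) over 6 and 8 pairs. Of 12511 genes 216 differed (1.73%), 117 (0.935%) towards a higher and 99 (0.791%) towards a lower value in the model. The count ran from 96 to 359 when 1 animal was left out. It moved by more than 1.5 times without the animal of model liver replicate 3, 4, 5 or 6 (99, 96, 131 and 99 genes) or of PBS liver replicate 4, 5 or 8 (359, 332 and 337 genes). In PBS mice on their own, 787 of 11275 genes (6.98%) were called between liver and blood, 4.88% as higher and 2.1% as lower in liver. Runs, again by the name prefix, and colony codes differ between the 2 cohorts and cannot be told apart from the model. Gene counts of PBS liver libraries went down to 337110, against at least 5107727 in the model. In PBS liver replicates 3 and 4, the shallowest, 90.9% and 89.8% of the entries were not aligned. In replicates 1, 2, 6 and 7 it was 42.0%, 45.8%, 29.0% and 27.3%. Replicates 5 and 8 had 19.7% and 20.3%, and the 13 model libraries 15.1% to 26.6%. The liver and blood libraries of PBS replicate 8 also carry different name prefixes. Without the pairs of PBS liver replicates 3 and 4, 251 genes differed. *Cd4* and *Rgs1* (values below) then lost the call (edgeR adjusted p = 0.0614 and 0.0513). The part of the other traits in the differences was not tested.

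*Tox* had 18.6, 38.7 and 52.3 CPM in PBS liver and 41.6, 51 and 54.9 CPM in PBS blood, so that its log2 fold change was 1.46 in the model and −0.26 in PBS mice. The difference of 1.73 ± 0.23 passed (edgeR adjusted p = 0.000529). *Lag3* (1.76 ± 0.37) and *Ctla4* (1.46 ± 0.29) also differed, and in total 6 of 20 checkpoint genes did (the others being *Nr4a3*, *Cd101* and *Cd200*), each towards the model. Of all genes 0.935% differed towards the model. For *Pdcd1* the levels were 2.62, 5.73 and 7.62 CPM in PBS liver and 0.997, 1.66 and 3.7 CPM in PBS blood. Its site difference was 2.42 in the model and 1.69 in PBS mice, and the difference of 0.79 ± 0.37 did not pass (adjusted p = 0.263). Of the immediate early list 5 of 25 differed, each towards the model, against 0.935% of all genes. Among them were *Nr4a1* (2.01 ± 0.26), *Dusp1* (2.73 ± 0.45) and *Nr4a3* (1.22 ± 0.28). *Tnfaip3* was 1.77 in the model and 0.18 in PBS mice (difference 1.60 ± 0.22). *Hspa1a* had a difference of 4.38 ± 1.37 that did not pass (adjusted p = 0.122).

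On the side of circulation genes 4 of 20 fell further in the model (*Ccr7*, *Satb1*, *Dapl1* and *Actn1*). Of all genes 0.791% differed towards a lower value in the model. *Ccr7* was −2.13 in the model and −0.85 in PBS mice (difference −1.24 ± 0.20, edgeR adjusted p = 0.00207). *S1pr1* had a difference of −0.18 ± 0.23, which did not pass. For the residency list 4 of 19 differed towards the model, against 0.935% of all genes, *Rgs1* (1.43 ± 0.31) and *Nr4a1* among them. *Cxcr6* was 1.37 in the model and 1.13 in PBS mice (difference 0.27 ± 0.31). *Ifng* gave 3.50 and 3.46, with a difference of 0.09 ± 0.48. *Gzmb* and *Mki67* did not pass either, with differences of −0.92 ± 0.64 and 0.24 ± 0.40. Among the genes that went the other way was *Klrb1c*, with 1.44, 4.24 and 7.04 CPM in model liver and 2.86, 5.46 and 7.66 CPM in model blood, against 18.6, 46.9 and 96.3 CPM in PBS liver and 5.97, 7.98 and 14.8 CPM in PBS blood. Its site difference was −0.46 in the model and 2.55 in PBS mice (difference −2.98 ± 0.47, edgeR adjusted p = 0.00294). *Ccr8* (4.03), *Cd83* (2.00), *Cxcr4* (0.96), *Cd4* (0.82), *Trac* (0.67) and *Fcrla* (3.64) were also called towards the model, and *Itgb3* (−0.93) and *Slc6a19* (−1.48) away from it. The change of the log2 ratio of *Cd4* to *Cd8a* counts did not differ detectably. It was −0.0939 in the model and −0.0357 in PBS mice (exact permutation p = 0.837, two-sided). The largest positive differences by the same rule also included *Blnk*, *March1*, *Faxc* and *Tmcc3*, and the largest negative ones *Sorcs2*, *Gpr15*, *Aqp9*, *Cpne7* and *Fam19a3*. Of the genes with values here, *Rgs1*, *Nr4a3*, *Cxcr4*, *Cd4*, *Trac*, *Fcrla* and *Slc6a19* lost the call in 3 or more of the fits that left out 1 animal, and *Ccr8* and *Cd83* without the animal of model liver replicate 6. *Lag3* did not pass when the animal was not a block. The inverse Simpson number of *Trbv* use changed by −5.25 (SD 1.64) between liver and blood in the model and by −1.91 (SD 2.21) in PBS mice (exact permutation p = 0.012, two-sided, 0.024 adjusted over 4 tests). The liver values of PBS replicates 3 and 4 rest on 62 and 18 *Trbv* counts, in libraries with 90.9% and 89.8% of the entries not aligned. Without these pairs the change in PBS mice was −2.68 (SD 1.99, p = 0.039). Liver values ran from 6.66 to 10.4 in the model and from 7.70 to 14.5 in PBS mice, so they overlapped.

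**Figure D5:**
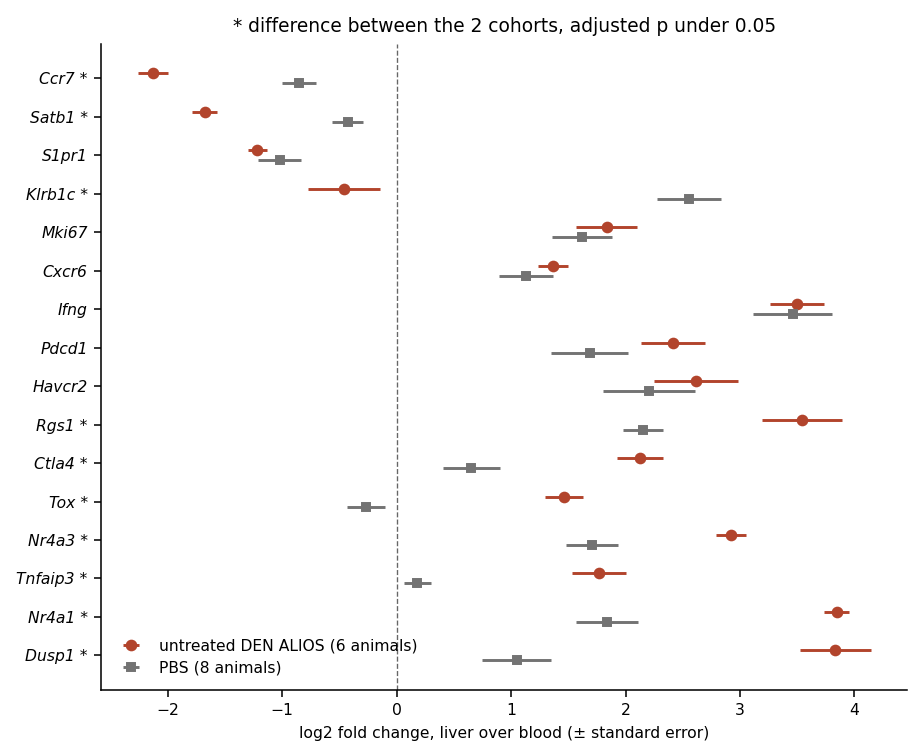
Log2 fold change of liver over blood ± standard error for 16 genes in untreated DEN ALIOS mice (circles, 6 animals) and PBS mice (squares, 8 animals), an asterisk marking a difference with an adjusted p under 0.05. *Tox* and *Tnfaip3* lie near 0 in PBS mice and at 1.46 and 1.77 in the model, whereas *Cxcr6* and *Ifng* lie close together.

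Few genes had a site difference that was detectably unlike that of aPD1-treated mice. Of 12700 genes 4 differed (0.0315%) by edgeR, all towards the untreated model, with 1198 at an unadjusted p under 0.05 and 43 by DESeq2. When 1 animal was left out the count ran from 0 to 63. It was 0 without the animal of model liver replicate 3 or 4 or of aPD1 liver replicate 1, 2 or 4, 22 without that of aPD1 liver replicate 3 and 63 without that of model liver replicate 1. In aPD1 mice on their own, 2880 of 11889 genes (24.2%) were called between liver and blood, 12.5% as higher and 11.8% as lower in liver. Scaled over both cohorts, *Ccr9* had 18.8, 42.3 and 89.4 CPM in model liver and 21.4, 27.1 and 44.3 CPM in model blood, against 0.837, 1.97 and 4.13 CPM in aPD1 liver and 10.2, 17.2 and 22.2 CPM in aPD1 blood. Its site difference was 0.52 in the untreated model and −2.89 under aPD1 (difference 3.37 ± 0.41, edgeR adjusted p = 0.0263). The other 3 were *Dntt*, the template-independent DNA polymerase of lymphocyte precursors (5.03 ± 0.68), *Fcrla*, a B cell gene (4.84 ± 0.70), and *Cd200r2* (2.73 ± 0.43). *Siglech*, a marker of plasmacytoid dendritic cells, was not among the 4 genes called. It had 37.9, 85.2 and 233 CPM in model liver and 4.65, 8.74 and 29.8 CPM in model blood, against at most 1.97 CPM in aPD1 liver and 0.319 CPM in aPD1 blood. Its level was thus lower under aPD1 at both sites. Within the model, liver replicate 1 was the highest liver library for *Ccr9*, *Dntt*, *Fcrla* and *Siglech*. The median difference of the list was 1.44 for dendritic cell genes, 2.87 for B cell genes and 3.73 for macrophage genes, and *Ccr9* is itself a member of the dendritic list. The part of other cells in these 4 differences was not tested. Each of the 4 lost its call when certain animals were left out, for instance the animal of model liver replicate 3, without which their adjusted p lay between 0.103 and 0.141. *Pdcd1* had site differences of 2.42 in the untreated model and 1.33 under aPD1, and *Tox* of 1.46 and 0.95, without a call (adjusted p = 0.368 and 0.482). The change of the inverse Simpson number was −5.25 in the untreated model and −1.67 (SD 1.85) under aPD1 (exact permutation p = 0.0043, 0.0173 adjusted over 4 tests). Liver values ran from 6.66 to 10.4 in the untreated model and from 6.69 to 11.2 under aPD1. Blood values had 12.2, 13.5 and 15.1 in the untreated model against 8.88, 9.66 and 13.9 under aPD1. The median was thus lower in aPD1 blood, and that blood difference was not tested.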

How the data were processed

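RNA of CD3-sorted T cells was sequenced from total RNA libraries (SMARTer Stranded Total RNA-Seq, Pico Input) as paired reads on a NextSeq 500, per the labels' protocols. The authors deposited whole-number counts per gene and library, used here as deposited. Per the submitters' processing notes, the tools were FastQC 0.11.8, Trim Galore 0.6.4, HISAT2 2.1.0 and HTSeq 0.11.2 with GRCm38. No source used here gives their roles, the annotation release or the strand setting, so genes with an antisense partner are uncertain. The 5 HTSeq summary entries, 69.8% of all entries, were left out of library sizes.

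Gene names came from the supplied reference tables for 37607 of 37713 identifiers. Genes were kept by edgeR's filterByExpr (minimum count 10, minimum total 15), scaled by TMM and tested with edgeR 4.0.16 (R 4.3.3) by quasi-likelihood, robust, with animal and site as terms and Benjamini-Hochberg adjustment at 0.05. Differences between cohorts were site by cohort terms in joint fits with the animal as a block. Depth sets the precision: gene counts were 4522064 to 10579882 per library in the model. The scripts were tested on simulated counts. Exact sign-flip and permutation tests were run in Python 3.11.15, and exact binomial intervals used SciPy 1.17.1. Fits with limma 3.58.1 and DESeq2 1.42.0 were alternatives. Pairing rests on the animal codes: deviations from the site means correlated at 0.0313 to 0.41 within animals (mean 0.259) and at −0.0506 on average between animals. None of 36 library pairs looked like copies of 1 library (lowest chi-square 4.12 per degree of freedom). Within each site the libraries are of separate animals.

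The members and gene lists were chosen with earlier results of these data known. All members of the T cell receptor, naive, residency, checkpoint and cytotoxic lists could be named. Of each other list up to 4 called members with the largest change and at least 5 CPM at the higher site could be, with a few preset genes, and over all genes the 12 largest rises and falls at 10 CPM or more that moved alike in all 6 animals. For the cohort differences the rule took the 6 largest in each direction. Members of small counts outside this rule, and genes followed into the cohort differences, were named after their values were seen. Some list members are counted but not reported by name here. The marker limit of 100 CPM and the depth limit for PBS pairs were added after seeing the data.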

Additional observations from a re-analysis of the deposited data

Results flagged for a closer look

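In 16 of 214 groups of 6 or 7 libraries (7.48%) 1 library stood apart from the rest by Dixon's criterion, where chance gives about 1 in 20. Low liver values were those of *Cxcr3* (60.2 CPM) and *Ccr8* (2.67 CPM) in liver replicate 2 and of *Fos* (6.56 CPM) in liver replicate 1. *Itga2b* was high in liver replicate 2 (4.86 CPM). In blood, replicate 7 was low for *Il2ra* (9.44 CPM), *Tubb1* (0.891 CPM), *Slc4a1* (1.69 CPM) and *Dntt* (2.32 CPM), and the only one with *Cd5l* (0.0891 CPM). That value is 1 count, below the limit that a count of 0 allows, so it shows no difference. Blood replicate 1 was low for *Nr4a3* (3.5 CPM) and *Egr2* (0 CPM). Blood replicate 4 was high for both inducible heat shock genes, *Hspa1a* (2.91 CPM) and *Hspa1b* (6.4 CPM). Blood replicate 2 was high for *Mpeg1* (62.9 CPM) and *Fcrla* (2.85 CPM), and blood replicate 6 for *Hspa5* (238 CPM).

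The site difference itself differed between cohorts for 19 genes with values given above. As signed log2 differences of the model minus PBS mice, it was positive for *Ccr8* (4.03), *Fcrla* (3.64), *Dusp1* (2.73), *Nr4a1* (2.01), *Cd83* (2.00), *Lag3* (1.76), *Tox* (1.73), *Tnfaip3* (1.60), *Ctla4* (1.46), *Rgs1* (1.43), *Nr4a3* (1.22), *Cxcr4* (0.964), *Cd4* (0.821) and *Trac* (0.675). It was negative for *Klrb1c* (−2.98), *Slc6a19* (−1.48), *Ccr7* (−1.24), *Satb1* (−1.22) and *Itgb3* (−0.934). Against aPD1 it was positive for *Dntt* (5.03), *Fcrla* (4.84), *Ccr9* (3.37) and *Cd200r2* (2.73). The change of the inverse Simpson number of *Trbv* use was −5.25 in the model and differed from that in PBS mice and from that in aPD1 mice.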

How the results depend on the processing

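Of 103 genes with values for liver over blood, 69 kept their side of the threshold under every alternative, and 1573 of 1646 alternative values did. *Cd8b1* changed sign and passed (0.25, adjusted p = 0.0182) without the 3 animals whose liver library exceeds 100 CPM of macrophage genes, and its cause was not tested. The 4760 calls became 1790 in run 1 alone, 1219 at 2-fold or more, and 3798 to 4590 without 1 animal. They numbered 4750 with RLE size factors, 4225 with DESeq2, 5710 without the filter, 4947 with no replicate block, 5494 with limma-voom and 4598 without those 3 animals. Blocking on the title number, which pairs different mice after number 2, gave 4199. *Cxcr4* was not called without the animal block (adjusted p = 0.0775). Against PBS, 216 calls became 727 with DESeq2, 927 without the filter and 683 with no replicate block, and 96 to 359 without 1 animal. The share towards the model was 54.2% in the main test, 41.5% without the filter and 42.0% with no replicate block. Without the PBS pairs of 337110 and 440785 liver counts there were 251 calls. *Tox*, *Nr4a1*, *Tnfaip3*, *Dusp1*, *Ctla4*, *Ccr7*, *Satb1*, *Itgb3* and *Klrb1c* kept the call throughout. Against aPD1, 4 calls became 43 with DESeq2, 27 without the filter and 0 to 63 without 1 animal (3 with no replicate block, 1198 at an unadjusted p under 0.05). The mean change of the inverse Simpson number was −5.46 to −4.61 without 1 animal (exact p = 0.0625, the smallest 5 pairs allow), and its difference from PBS mice had p = 0.039 without the shallow pairs. Depth limits genes under about 1 CPM and the power in those PBS pairs.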
